A study of Homo sapiens with 10 samples.

Results

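RNA levels of the genes for cholesterol and fatty acid synthesis were measured on exon arrays in cells of DLD-1, a line from a human colorectal cancer, after knockdown of LMNB1, the gene of lamin B1, which forms filaments under the nuclear envelope. The members were a list of 32 genes of 3 roles: sterol synthesis enzymes, genes around the sterol-controlled transcription factors called SREBPs, and fatty acid synthesis enzymes. The genes around SREBPs are called regulators below, and include SREBF1 and SREBF2, the genes of these factors, and the cholesterol carrier STARD4. A gene was taken where a probe of the array carries its symbol alone, and its values were those of that probe. This held for 26 members, 13 of 17 sterol enzymes, 5 of 6 regulators and 8 of 9 fatty acid enzymes, out of 14232 genes on the array with such a probe. All 26 passed the filter on dim probes. ACAT2, FDFT1, CYP51A1, HSD17B7, SREBF2 and ELOVL5 had no probe of their own symbol alone and were not analysed here. The rule goes by gene symbol, and no measured member had more than 1 such probe to choose from.

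The knockdown cells carried short hairpin RNA from construct V2LHS_62673, as single cell clones 8, 9 and 12 with 1 array each, or from construct V2LHS_62675, as 1 single cell clone with 3 arrays. The controls were wild type cells, uncloned and with 1 array, and 3 single cell clones with an empty vector, 1 array each. All cells grew in RPMI medium with serum, and all but the wild type cells were kept under puromycin, so the effects of vector, selection and cloning between these 2 controls cannot be told apart. The labels of the V2LHS_62675 arrays disagree. Their titles call them biological replicates of clone 12, but by their descriptions and the study's design they repeat clone 2, and the design was followed. These arrays were therefore averaged into 1 sample for the main tests, and their spread is that between repeats. In cultures of this kind, fewer cells with a transcript and less RNA per cell cannot be told apart.

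Cells make cholesterol from acetyl-CoA through mevalonate, isoprenoids, squalene and lanosterol. When sterols are scarce, the escort protein SCAP carries SREBP from the endoplasmic reticulum to the Golgi, where proteases release its active part, and when sterols are plentiful the INSIG proteins hold SCAP and SREBP back. Genes of the sterol pathway are known mainly as targets of SREBP-2 and those of fatty acid synthesis mainly of SREBP-1, which SREBF1 encodes, and INSIG1 is itself a target. SREBP acts at such promoters together with the CCAAT-binding factor NF-Y.

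Promoter windows are shown for 7 of the 8 members that passed a test in any comparison below, those with a CCAAT box before their start. IDI1 passed as well but is not shown, since its promoter held no CCAAT. The sequences are from RefSeq (GRCh38.p14), on the gene's own strand, with 30 bases on each side of the boxes where the table reaches so far. Capitals mark the box, CCAAT, or ATTGG where it lies on the other strand.
INSIG1, chr7:155297678-155297742, plus strand: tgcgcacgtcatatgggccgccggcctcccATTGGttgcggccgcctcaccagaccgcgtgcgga
TM7SF2, chr11:65111768-65111832, plus strand: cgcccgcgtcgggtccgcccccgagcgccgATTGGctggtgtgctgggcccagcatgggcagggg
HMGCS1, chr5:43313478-43313597, minus strand: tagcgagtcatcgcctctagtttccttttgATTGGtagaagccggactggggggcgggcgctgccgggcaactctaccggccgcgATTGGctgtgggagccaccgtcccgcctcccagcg
LSS, chr21:46228890-46228954, minus strand: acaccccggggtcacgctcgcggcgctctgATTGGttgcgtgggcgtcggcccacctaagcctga
DHCR7, chr11:71448407-71448517, minus strand: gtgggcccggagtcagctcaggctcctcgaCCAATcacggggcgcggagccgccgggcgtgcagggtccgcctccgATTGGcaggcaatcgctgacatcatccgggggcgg
ACSS2, chr20:34874836-34874900, plus strand: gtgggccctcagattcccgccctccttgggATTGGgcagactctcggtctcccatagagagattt
SCD, chr10:100346983-100347081, plus strand: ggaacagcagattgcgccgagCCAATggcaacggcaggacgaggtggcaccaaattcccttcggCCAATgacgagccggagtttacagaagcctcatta
The table held a promoter, 250 bases before to 50 after the start, for 24 of the 26 measured members. CCAAT was found on either strand in 15 of the 24 (62.5%), against 35.7% of all 27305 promoters. The strict core of the sterol element searched, TCACNCCAC on either strand, was in none of the 24 and in 1.15% of all promoters. One letter shorter at the end, TCACNCCA, was in MVK only, against 3.93% of all promoters. The core shortened at the start instead, CACNCCAC, which was added after the others had been seen, was in INSIG1, SC5D and SCD, against 5.74% of all promoters. These shorter motifs overlap the strict one by design. The matches describe letters in these windows only.

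Clone 8 was unlike every other sample, so its values are also given apart. Its correlation with the other samples over all probes was 0.915 to 0.926, against 0.986 to 0.994 among the others, and its median level was 7.62, against 7.34 to 7.41. Of 13 colon epithelial markers, 12 passed the dim filter and 9 lay above the 75th percentile of all probes, while KRT20 was below the filter. Of 8 fibroblast, 7 leukocyte, 8 endothelial and 7 adipocyte or hepatocyte markers measured, 5, 5, 5 and 3 passed the dim filter. None of the markers in these lists lay above the 75th percentile. Their mean levels were higher in clone 8 (6.49 for fibroblast, 6.32 for leukocyte, 6.83 for endothelial and 6.32 for adipocyte or hepatocyte markers) than in the other samples (at most 5.98, 5.86, 6.31 and 5.88, in the same order), and their part in the results was not tested. LMNB1 has a single probe, which it shares with PCIF1. That probe read 7.79, 7.70 and 7.45 in clones 8, 9 and 12 and 7.72, 7.72 and 7.56 on the V2LHS_62675 arrays, against 9.52 in wild type cells and 8.93, 9.17 and 8.84 in the empty vector clones, so every knockdown array was below every control. All levels and differences below are on the log2 scale. The p-values for knockdown against control rest on the spread among the 4 samples on each side. All other p-values rest on the spread among the V2LHS_62673 clones and among the empty vector clones.

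No member passed between knockdown and control as a whole. With all clones, 18 of 26 members were lower in the 4 knockdown clones than in the 4 controls, with a median difference of -0.10, against 44.0% of all features and a median of 0.04. None of the 26 passed limma's adjusted threshold, and neither did any of the 11199 features (0% called). At an unadjusted p under 0.05 there was 1 member, and 256 features. That member was ACSS2, at -0.44 (SE 0.16, adjusted p = 0.761). Without clone 8 the median was -0.09, 17 of 26 were lower, and again no member and no feature (0%) passed in limma, with 2 members and 724 features at an unadjusted p under 0.05. No member had all knockdown clones below all controls or all above. With all clones, 1.54% of all features had all of them below and 1.59% had all of them above. The smallest exact permutation p among the members, two-sided, was 0.0571 for ELOVL6, where 4 against 4 samples can reach 0.0286 at the least.

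Most members (23 of 26) were lower in wild type cells than the mean of the empty vector clones, against 51.8% of all features. With all clones, no member passed in limma between these 2 kinds of control (smallest adjusted p = 0.481). The empty vector mean was the highest of the 4 group means for 17 of 26 members with all clones, against 19.7% of all features, and for 16 of 26 without clone 8, against 24.3%. Wild type cells had the lowest mean for 12 members with all clones and 14 without clone 8, against 30.3% and 29.9% of all features. In the plot of members by array, INSIG1 and TM7SF2 are low on the V2LHS_62675 arrays and on the wild type array, and clone 8 has its own pattern.

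**Figure D1:**
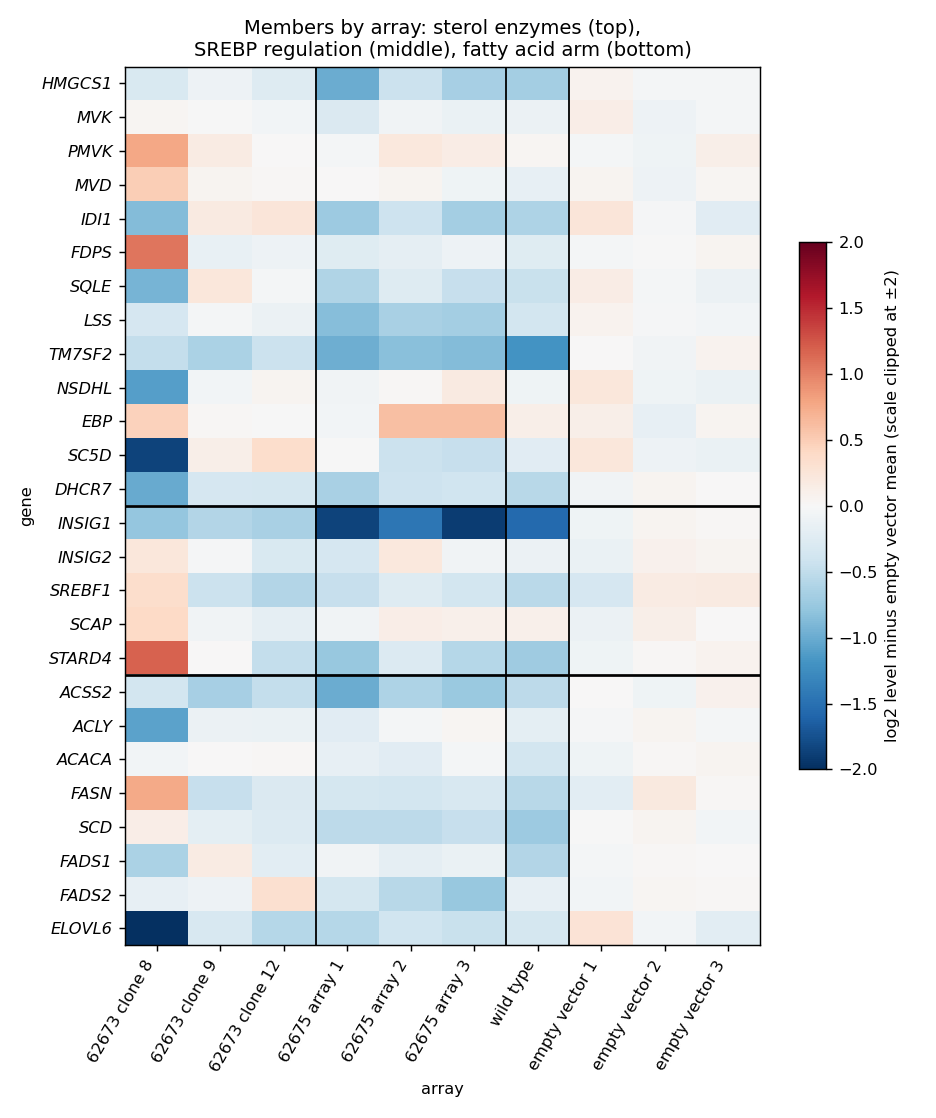
Level of each of the 26 members (rows, in 3 blocks by role) on each of the 10 arrays (columns), as the log2 difference from the mean of the 3 empty vector clones, which are near 0 by construction. Blue is lower and red higher. INSIG1 lies at -1.90 to -1.45 on the V2LHS_62675 arrays, and clone 8 ranges from -2.42 (ELOVL6) to 1.18 (STARD4).

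Each group was then set against the empty vector clones, which had been through the same selection and cloning as the hairpin clones. With all clones no feature passed in limma in any of these comparisons, nor between the constructs, nor against wild type cells (0% called in each). The features at an unadjusted p under 0.05 then numbered 359 for V2LHS_62673, 296 for V2LHS_62675 and 290 for wild type cells, each against empty vector, and members numbered 4, 5 and 5, all lower. Without clone 8, 3 members passed in V2LHS_62673 clones 9 and 12 (0.991% of all features called), 7 in the V2LHS_62675 clone (3.74%) and 5 in wild type cells (3.57%), all of them lower. These comparisons share the empty vector clones. The tests without clone 8 rest on those 3 clones and on clones 9 and 12 for their spread. Without empty vector clone 2 or 3 as well, the counts were 0 and 0 for V2LHS_62673, 3 and 3 for V2LHS_62675, and 2 and 2 for wild type cells, and the counts of all features then were 5 and 4, 72 and 70, and 42 and 18, against 111, 419 and 400 with both. Without empty vector clone 1, V2LHS_62673 had 5 members among 493 features and wild type cells 8 among 694. Without clone 9 they had 1 among 248 and 10 among 746, and without clone 12 wild type cells had 10 among 746. The 3 calls for V2LHS_62673 were INSIG1, TM7SF2 and ACSS2. All 3 were lost with clone as a random block over all arrays, where 23 features passed. TM7SF2 and ACSS2 were also lost without clone 9 and with quantile normalization, and TM7SF2 with no filter on dim probes.

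The ranges of arrays carry no test. Clones 9 and 12 of V2LHS_62673 were both below all 3 empty vector clones for 11 of 26 members, against 17.3% of all features. With clone 8 included this held for 7 members, ACLY, ACSS2, DHCR7, ELOVL6, HMGCS1, INSIG1 and TM7SF2, against 7.95% of all features. All 3 V2LHS_62675 arrays were below all 3 empty vector arrays for 15 of 26 members, against 13.6% of all features, though these arrays are repeats of 1 clone. No member was above on all arrays in any of these 3 comparisons, against 14.99%, 5.795% and 13.33% of all features in the same order.

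**Figure D2:**
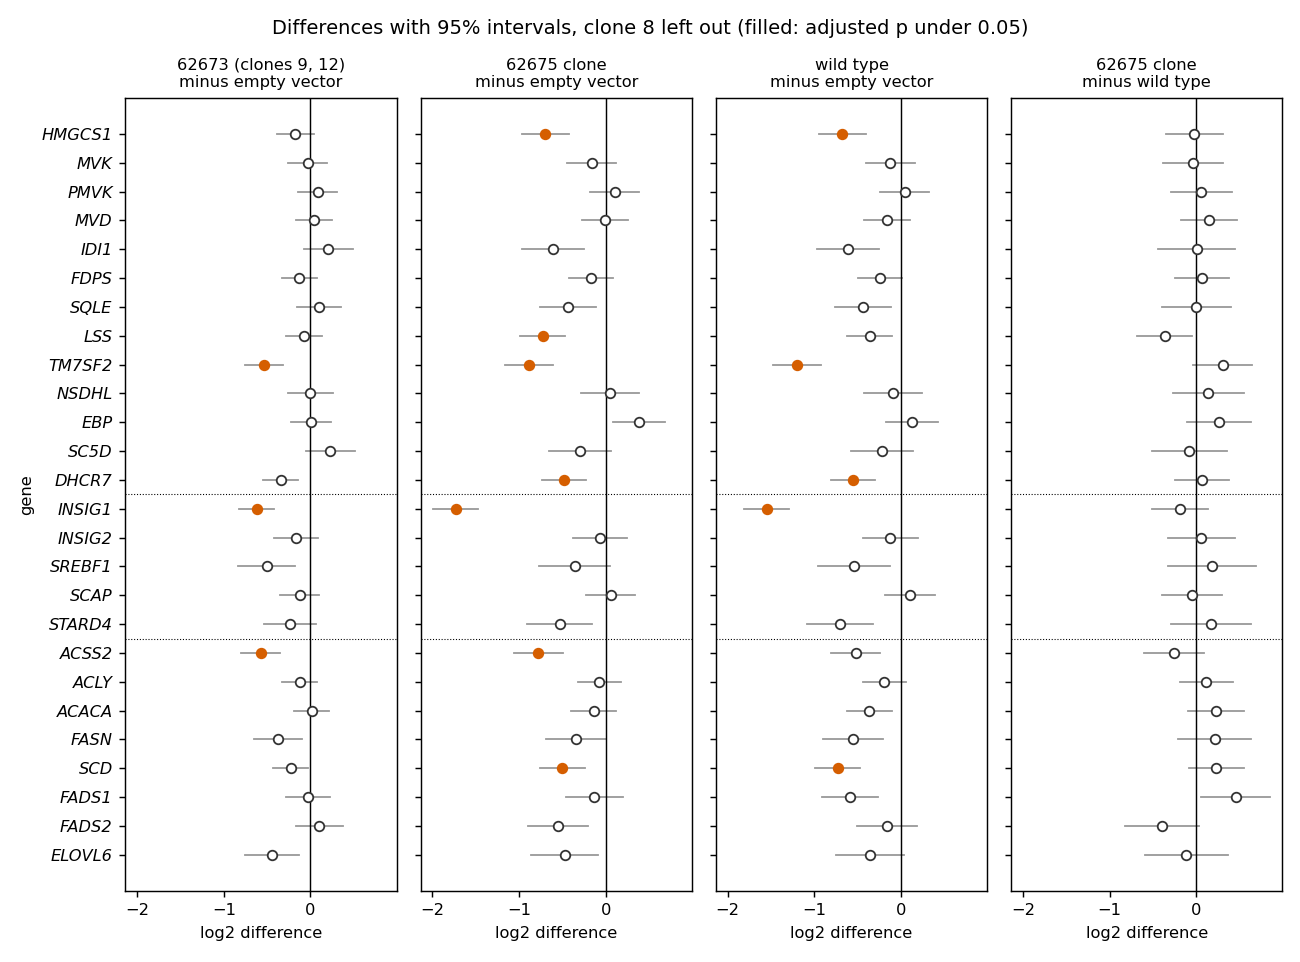
Difference in level (log2) with 95% intervals for each member in 4 comparisons without clone 8. Filled points passed an adjusted p of 0.05 in limma (3, 7, 5 and 0 members from left to right). The fatty acid enzymes, in the lowest block, are all left of 0 in both middle panels.

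Against empty vector and without clone 8, INSIG1 had the largest difference of all members in each of the 3 comparisons. INSIG1 encodes the endoplasmic reticulum protein that retains SCAP and SREBP when sterols are plentiful. Its level was 9.41, 9.60 and 9.53 in V2LHS_62673 clones 8, 9 and 12 and 8.34, 8.74 and 8.28 on the V2LHS_62675 arrays, against 8.64 in wild type cells and 10.11, 10.25 and 10.21 in the empty vector clones. The hairpin clones and wild type cells were thus all below the empty vector clones, and the V2LHS_62673 clones lay between the empty vector clones and the rest. Without clone 8 the difference from empty vector was -0.62 in V2LHS_62673 (SE 0.09, 95% interval -0.83 to -0.42, adjusted p = 0.0205), which is 1.54-fold. In the V2LHS_62675 clone it was -1.73 (SE 0.12, interval -1.99 to -1.47, adjusted p = 1.22e-04), which is 3.32-fold. In wild type cells it was -1.55 (SE 0.12, interval -1.81 to -1.29, adjusted p = 7.64e-04), which is 2.92-fold. With all clones these differences were -0.67, -1.73 and -1.55, with adjusted p of 0.742, 0.228 and 0.481.

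None of the other 4 regulators passed. INSIG2, the second INSIG gene, was 7.18 ± 0.20 in clones 9 and 12 (SD, n = 2) and 7.28 on average over the V2LHS_62675 arrays, against 7.22 in wild type cells and 7.34 ± 0.11 in the empty vector clones (SD, n = 3). SCAP, the escort of SREBP, was 8.29 ± 0.07 and 8.47, against 8.51 in wild type cells and 8.41 ± 0.12 in empty vector clones. Apart from clone 8, the groups of both genes overlap. Clone 8 read 7.58 for INSIG2 and 8.81 for SCAP, the highest array for each.

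SREBF1 was 8.49 and 8.34 in clones 9 and 12 and 8.46, 8.67 and 8.56 on the V2LHS_62675 arrays, against 8.38 in wild type cells and 8.59, 9.08 and 9.10 in the empty vector clones. Clones 9 and 12 were below all empty vector clones, but the spread within the empty vector clones was as wide as 0.29 (SD). The differences from empty vector without clone 8 were -0.51 in V2LHS_62673 (adjusted p = 0.135), -0.36 in V2LHS_62675 (adjusted p = 0.359) and -0.54 in wild type cells (adjusted p = 0.133). STARD4, a carrier of cholesterol between membranes, was 8.97 and 8.47 in clones 9 and 12 and 8.19, 8.69 and 8.39 on the V2LHS_62675 arrays, against 8.25 in wild type cells and 8.86, 8.99 and 9.02 in the empty vector clones. Its difference in wild type cells was -0.70 (SE 0.17, adjusted p = 0.0509) and in the V2LHS_62675 clone -0.53 (adjusted p = 0.115). In clone 8, SREBF1 (9.27) and STARD4 (10.14) were higher than in any other sample.

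Among the sterol enzymes, TM7SF2, HMGCS1, LSS and DHCR7 passed against empty vector in at least 1 group without clone 8. TM7SF2 encodes a sterol reductase of the endoplasmic reticulum that carries out the same step as the lamin B receptor. It read 8.76, 8.61 and 8.80 in clones 8, 9 and 12 and 8.27, 8.41 and 8.38 on the V2LHS_62675 arrays, against 8.04 in wild type cells and 9.24, 9.17 and 9.30 in the empty vector clones. Every sample outside the empty vector group was lower than every empty vector clone, and wild type cells were the lowest. The differences from empty vector without clone 8 were -0.53 in V2LHS_62673 (SE 0.10, adjusted p = 0.0398), -0.89 in V2LHS_62675 (SE 0.13, adjusted p = 0.00684) and -1.20 in wild type cells (SE 0.13, adjusted p = 0.00501).

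HMGCS1 makes HMG-CoA, at the entry of the pathway. HMGCS1 read 10.56, 10.77 and 10.62 in clones 8, 9 and 12 and 9.87, 10.43 and 10.20 on the V2LHS_62675 arrays, against 10.19 in wild type cells and 10.94, 10.82 and 10.83 in the empty vector clones. All hairpin arrays and the wild type array were below the empty vector clones, by a narrow gap for clone 9. The difference was -0.70 in the V2LHS_62675 clone (SE 0.12, adjusted p = 0.0157) and -0.68 in wild type cells (SE 0.12, adjusted p = 0.0226). In V2LHS_62673 it was -0.17 (SE 0.10, adjusted p = 0.425), which did not pass.

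LSS, which closes squalene epoxide into lanosterol, read 8.73, 9.03 and 8.95 in clones 8, 9 and 12 and 8.22, 8.41 and 8.39 on the V2LHS_62675 arrays, against 8.70 in wild type cells and 9.14, 9.05 and 9.01 in the empty vector clones. The V2LHS_62675 arrays were the lowest, and clone 9 lay inside the empty vector range. The difference was -0.73 in the V2LHS_62675 clone (SE 0.12, adjusted p = 0.0116), against -0.36 in wild type cells (adjusted p = 0.115) and -0.07 in V2LHS_62673 (adjusted p = 0.789). DHCR7, the last reductase before cholesterol, read 9.38, 10.05 and 10.04 in clones 8, 9 and 12 and 9.74, 9.97 and 9.99 on the V2LHS_62675 arrays, against 9.83 in wild type cells and 10.32, 10.44 and 10.39 in the empty vector clones. The empty vector clones were above all the others. Its difference was -0.49 in the V2LHS_62675 clone (SE 0.12, adjusted p = 0.0461) and -0.55 in wild type cells (SE 0.12, adjusted p = 0.0320), while -0.34 in V2LHS_62673 (adjusted p = 0.106) did not pass.

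IDI1 and SQLE were low in the V2LHS_62675 clone and wild type cells but not in clones 9 and 12. IDI1 interconverts the isoprenoid building blocks. IDI1 read 10.63 and 10.70 in clones 9 and 12 and 9.72, 10.04 and 9.78 on the V2LHS_62675 arrays, against 9.84 in wild type cells and 10.70, 10.43 and 10.24 in the empty vector clones. SQLE, which oxidises squalene, read 11.43 and 11.17 in clones 9 and 12 and 10.59, 10.95 and 10.74 on the V2LHS_62675 arrays, against 10.76 in wild type cells and 11.35, 11.16 and 11.09 in the empty vector clones. In both genes the V2LHS_62675 arrays and the wild type array lay below all empty vector clones, and clone 8 was lower still, at 9.59 and 10.28. Against empty vector IDI1 differed by -0.61 in the V2LHS_62675 clone and in wild type cells (adjusted p = 0.0678 and 0.0647), and SQLE by -0.44 in each (adjusted p = 0.126 and 0.119), so neither passed.

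The remaining 7 sterol enzymes differed from empty vector by 0.39 or less without clone 8 in each of these comparisons, and none passed. MVK and PMVK add phosphate to mevalonate, and MVD removes its carboxyl group. MVK averaged 7.76 ± 0.03 in clones 9 and 12 (SD, n = 2) and 7.63 in V2LHS_62675, against 7.67 in wild type cells and 7.80 ± 0.12 in empty vector clones (SD, n = 3). PMVK averaged 7.53 ± 0.11 and 7.55, against 7.49 and 7.45 ± 0.10 in the same samples. The values for MVD were 8.05 ± 0.02 and 8.00, against 7.85 and 8.01 ± 0.09. None of these 3 enzymes separated the groups.

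FDPS makes farnesyl diphosphate, NSDHL removes carbon in the demethylation of sterols, EBP is a sterol isomerase and SC5D a sterol desaturase. FDPS read 8.07 and 8.10 in clones 9 and 12 and 7.98, 8.03 and 8.11 on the V2LHS_62675 arrays, against 7.97 in wild type cells and 8.17, 8.20 and 8.27 in empty vector clones, so the empty vector clones were highest, with differences of -0.13, -0.17 and -0.24 from them. NSDHL averaged 9.37 ± 0.09 in clones 9 and 12 and 9.42 in V2LHS_62675, against 9.28 in wild type cells and 9.37 ± 0.19 in empty vector clones. SC5D averaged 11.82 ± 0.16 and 11.29, against 11.37 and 11.59 ± 0.20. EBP was higher on part of the arrays. It read 8.69, 9.34 and 9.34 on the V2LHS_62675 arrays, against 8.86 in wild type cells and 8.86, 8.57 and 8.79 in empty vector clones. Array 1 of that clone thus lay within the empty vector range and the other 2 above it, and the difference of 0.39 had an adjusted p of 0.146. Clones 9 and 12 were at 8.76 and 8.73, while clone 8, at 9.20, was above wild type cells and all empty vector clones.

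The fatty acid enzymes were lower than in empty vector clones in 8 of 8 cases in the V2LHS_62675 clone, with a median of -0.41, and in 8 of 8 in wild type cells, with a median of -0.45. The sterol enzymes were lower in 10 and 11 of 13, with medians of -0.30 and -0.24. Over all features 43.6% and 51.8% were lower, with medians of 0.02 and -0.01. In clones 9 and 12 the fatty acid enzymes had a median of -0.18, with 6 of 8 lower, and the sterol enzymes a median of 0.00, with 7 of 13 lower, beside 50.2% of all features. In the same comparison 12 of 12 colon epithelial markers were lower, with a median of -0.19, as were 13 of 16 fatty acid oxidation genes (median -0.13) and 8 of 12 glycerolipid synthesis genes (median -0.16), and their part in the result was not tested. The difference between the arms was not tested.

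**Figure D3:**
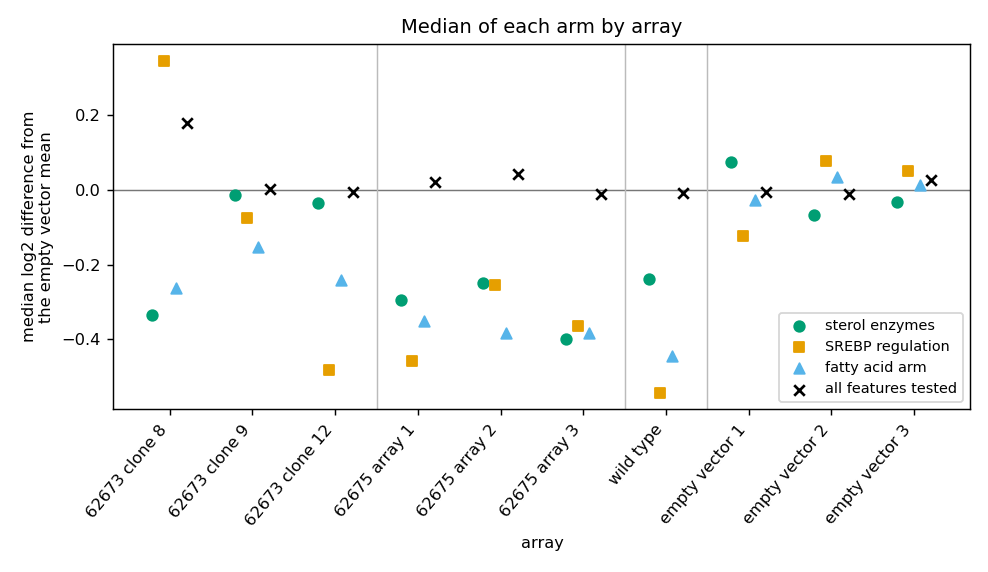
Median over the sterol enzymes (13), SREBP regulators (5), fatty acid enzymes (8) and all 11199 features of the log2 difference from the empty vector mean, on each array. The fatty acid median lies between -0.15 and -0.45 on every array outside the empty vector group, while the sterol median is -0.01 and -0.03 in clones 9 and 12 and between -0.24 and -0.40 on the other hairpin and wild type arrays.

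ACSS2, which makes acetyl-CoA from acetate, was the fatty acid gene that passed in both constructs without clone 8. ACSS2 read 8.15, 7.84 and 8.03 in clones 8, 9 and 12 and 7.52, 7.90 and 7.77 on the V2LHS_62675 arrays, against 7.98 in wild type cells and 8.52, 8.42 and 8.59 in the empty vector clones. All other samples were below the empty vector clones. The difference was -0.57 in V2LHS_62673 (SE 0.10, adjusted p = 0.0326) and -0.78 in V2LHS_62675 (SE 0.13, adjusted p = 0.0121), and -0.52 in wild type cells (SE 0.13, adjusted p = 0.0523) did not pass.

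SCD, the desaturase that makes oleate, read 12.41, 12.09 and 12.02 in clones 8, 9 and 12 and 11.76, 11.76 and 11.83 on the V2LHS_62675 arrays, against 11.55 in wild type cells and 12.28, 12.34 and 12.23 in the empty vector clones. Clone 8 was the highest sample, and all the others outside the empty vector group were below it. The difference was -0.50 in the V2LHS_62675 clone (SE 0.12, adjusted p = 0.0446) and -0.73 in wild type cells (SE 0.12, adjusted p = 0.0138), and -0.23 in clones 9 and 12 (adjusted p = 0.260) did not pass.

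**Figure D4:**
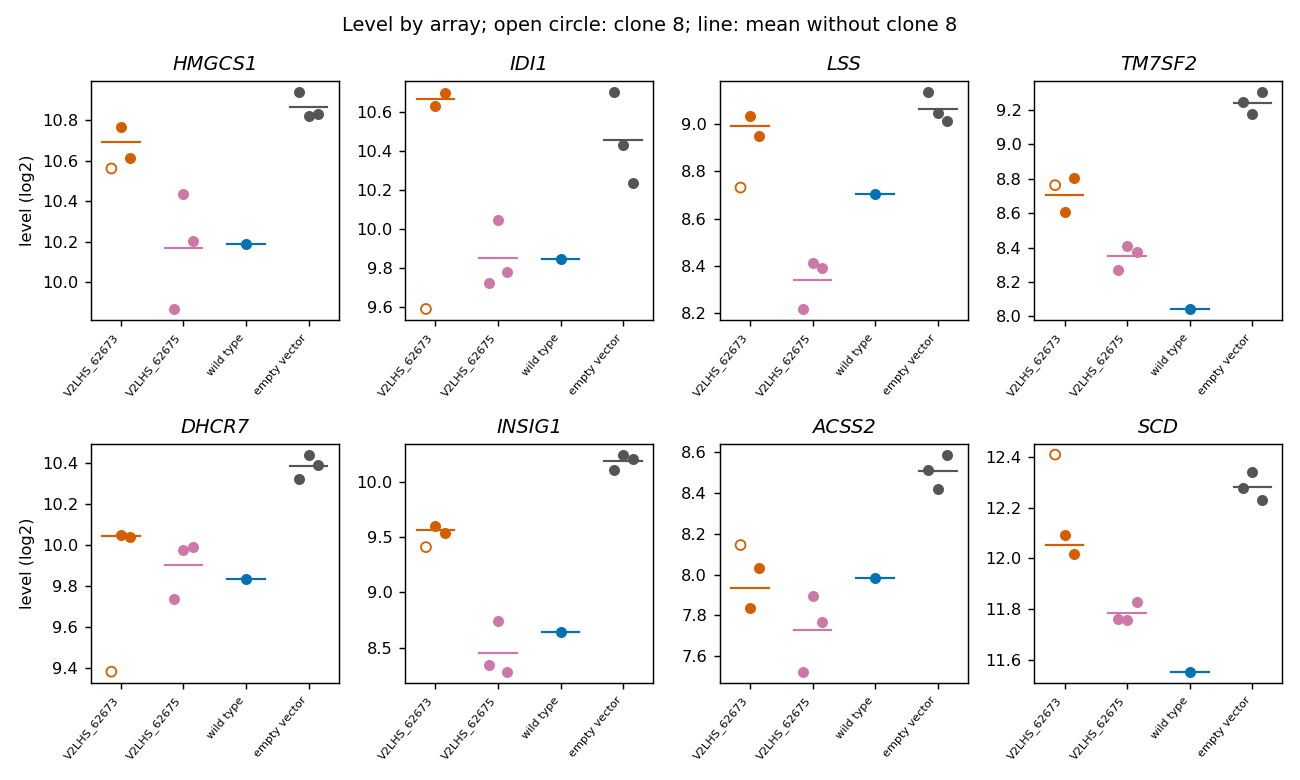
Level (log2) on each array of the 8 members that passed in any comparison without clone 8, by group, each panel with its own scale. Points are arrays, the open circle is clone 8, and lines are means without it. The empty vector clones are above the V2LHS_62675 arrays and wild type cells in all 8 panels, and IDI1 and LSS in clones 9 and 12 lie at or near the empty vector level.

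FASN, the fatty acid synthase, read 9.14 and 9.30 in clones 9 and 12 and 9.24, 9.23 and 9.28 on the V2LHS_62675 arrays, against 9.04 in wild type cells and 9.38, 9.79 and 9.62 in the empty vector clones. ELOVL6, which lengthens palmitate, read 9.76 and 9.50 in clones 9 and 12 and 9.50, 9.68 and 9.63 on the V2LHS_62675 arrays, against 9.72 in wild type cells and 10.34, 10.02 and 9.87 in the empty vector clones. In both genes the empty vector clones were above all these samples without a pass: FASN differed by -0.38, -0.34 and -0.56 in V2LHS_62673, V2LHS_62675 and wild type cells (adjusted p = 0.172, 0.279 and 0.0763), and ELOVL6 by -0.44, -0.47 and -0.36 (adjusted p = 0.155, 0.172 and 0.305). Clone 8 lay far from them in opposite directions, at 10.36 for FASN and 7.65 for ELOVL6.

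ACLY, which makes acetyl-CoA from citrate, averaged 10.72 ± 0.02 in clones 9 and 12 (SD, n = 2) and 10.77 in V2LHS_62675, against 10.66 in wild type cells and 10.85 ± 0.04 in empty vector clones (SD, n = 3). ACACA, the acetyl-CoA carboxylase, averaged 8.67 ± 0.01 and 8.51, against 8.29 and 8.65 ± 0.08. Wild type cells were the lowest of these for both genes, and the ACACA difference from empty vector was -0.37 there (adjusted p = 0.112).

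FADS1 and FADS2 desaturate polyunsaturated fatty acids and are neighbours on chromosome 11. FADS1 read 7.98 and 7.61 in clones 9 and 12 and 7.75, 7.64 and 7.69 on the V2LHS_62675 arrays, against 7.24 in wild type cells and 7.79, 7.85 and 7.83 in the empty vector clones. FADS2 read 6.95 and 7.38 in clones 9 and 12 and 6.71, 6.50 and 6.31 on the V2LHS_62675 arrays, against 6.90 in wild type cells and 7.06 ± 0.05 in the empty vector clones (SD, n = 3). Clone 8 read 7.19 for FADS1, just below wild type cells, and 6.90 for FADS2. Apart from clone 8, the low sample differed between the neighbours. It was wild type cells for FADS1 (-0.59, adjusted p = 0.0557) and the V2LHS_62675 clone for FADS2 (-0.55, adjusted p = 0.0793).

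The V2LHS_62675 clone was also set directly against V2LHS_62673 without clone 8, and 3 members passed (2.15% of all features called), all lower in V2LHS_62675. INSIG1 differed by -1.11 (SE 0.13, 95% interval -1.39 to -0.83, adjusted p = 0.00318), IDI1 by -0.81 (SE 0.17, interval -1.20 to -0.43, adjusted p = 0.0416) and LSS by -0.65 (SE 0.13, interval -0.93 to -0.37, adjusted p = 0.0327). With all clones the same differences were -1.06, -0.46 and -0.56, each with an adjusted p of 0.931. The probe for LMNB1 and PCIF1 differed between the constructs by 0.10 without clone 8 (95% interval -0.27 to 0.46, adjusted p = 0.933). Without empty vector clone 2 or 3 the count was 1, among 69 and 75 features, and without array 1 of the V2LHS_62675 clone it was 6 among 956, against 241 features with all of these.

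Against wild type cells, V2LHS_62673 clones 9 and 12 had 3 members that passed (1.42% of all features called), all higher: INSIG1 at 0.93 (SE 0.13, adjusted p = 0.0156), IDI1 at 0.82 (SE 0.17, adjusted p = 0.0483) and TM7SF2 at 0.66 (SE 0.13, adjusted p = 0.0418). None of the 3 passed without empty vector clone 2 or 3, where 5 and 2 features did, against 159 with both. The sterol enzymes were higher than in wild type cells in 12 of 13 cases, with a median of 0.21, and the fatty acid enzymes in 6 of 8, with a median of 0.22. Over all features 48.7% were lower, with a median of 0.01.

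The V2LHS_62675 clone and wild type cells, 1 clone-level sample each, gave no member past the threshold, with 0.205% of all features called. The median difference over the members was 0.06, with 17 of 26 higher, and over all features 0.02. INSIG1 differed by -0.18 (95% interval -0.50 to 0.13), HMGCS1 by -0.02 (-0.35 to 0.31), IDI1 by 0.00 (-0.44 to 0.44) and SQLE by 0.00 (-0.39 to 0.40). TM7SF2 was 0.31 higher in the V2LHS_62675 clone (-0.03 to 0.65) and SCD 0.23 higher (-0.08 to 0.55). FADS1 (0.46, 0.06 to 0.85) and LSS (-0.36, -0.68 to -0.04) had intervals that leave out 0 but adjusted p of 0.873 and 0.880.

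Clone 8 differed from its sister clones in both directions. FDPS (9.29), MVD (8.50), PMVK (8.23), FASN (10.36) and STARD4 (10.14) were higher in it than in any other sample, and SC5D (9.74), NSDHL (8.27), ACLY (9.77), SQLE (10.28), IDI1 (9.59), DHCR7 (9.38) and ELOVL6 (7.65) were lower than in any other. FADS1 (7.19) was also lowest in clone 8, just below wild type cells (7.24). The regulators INSIG2 (7.58), SCAP (8.81) and SREBF1 (9.27) were highest in clone 8 too. SC5D was at 11.71 and 11.94 and NSDHL at 9.31 and 9.44 in clones 9 and 12. INSIG1, TM7SF2, HMGCS1 and ACSS2 were below all empty vector clones in clone 8 as in its sisters.

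Within each arm, the likeness of a member to the rest was described by Pearson's r over the clone-level samples with the median of the other members of its arm. Over the 7 samples without clone 8, HMGCS1 (0.92), SQLE (0.88), MVK (0.87), LSS (0.86) and IDI1 (0.84) were most like the other sterol enzymes, while EBP (-0.61) and PMVK (-0.40) ran opposite to them. SCD (0.94), ACLY (0.83) and FASN (0.81) were most like the other fatty acid enzymes, and SREBF1 (0.89) the other regulators. With clone 8, r was 0.88 for HMGCS1, 0.61 for SQLE and 0.68 for SCD but 0.18 for both ACLY and FASN. The samples share arrays and normalization, and these values carry no test.

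Genes of neighbouring pathways were counted from 8 companion lists without clone 8. Against empty vector, 3 of 8 other sterol synthesis genes were lower in V2LHS_62675 and 4 in wild type cells. Likewise 4 and 2 of 8 SREBP processing and 4 and 5 of 11 prenyl, dolichol and quinone genes were lower. So were 8 and 7 of 10 supply, 6 and 8 of 12 glycerolipid and 11 and 8 of 16 oxidation genes. So were 5 and 7 of 11 storage and export and 7 and 7 of 9 elongation and desaturation genes. Over all features 43.6% and 51.8% were lower. Of 8 other sterol synthesis genes tested, MSMO1, which demethylates sterols, followed IDI1. MSMO1 read 10.53, 12.06 and 12.13 in clones 8, 9 and 12 and averaged 11.34 on the V2LHS_62675 arrays, against 11.04 in wild type cells and 12.18, 12.12 and 11.84 in the empty vector clones. The differences of MSMO1 from empty vector were -0.70 in V2LHS_62675 (adjusted p = 0.0296) and -1.01 in wild type cells (adjusted p = 0.00926), and 0.05 in V2LHS_62673. It was 0.75 lower in V2LHS_62675 than in V2LHS_62673 (-0.75, adjusted p = 0.0397) and 1.05 higher in V2LHS_62673 than in wild type cells (adjusted p = 0.0190). With all clones MSMO1 did not pass.

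Of 8 other SREBP processing genes, SEC24D, a coat protein of vesicles that leave the endoplasmic reticulum, was lower in V2LHS_62675 (-0.97, adjusted p = 0.0372), where the SD between the empty vector clones was 0.35. Of 10 acetyl-CoA and NADPH supply genes, IDH1, the cytosolic isocitrate dehydrogenase, was lower in V2LHS_62675 (-0.49, adjusted p = 0.0421) and wild type cells (-0.48, adjusted p = 0.0447), and SLC25A1, the mitochondrial citrate carrier, in V2LHS_62673 (-0.54, adjusted p = 0.0405). Of 11 genes of the prenyl, dolichol and quinone branches, GGPS1, which makes geranylgeranyl diphosphate, was lower in V2LHS_62673 (-0.54, adjusted p = 0.0354).

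Of 12 glycerolipid synthesis genes, ACSL4 was lower in V2LHS_62673 (-0.58, adjusted p = 0.0326) and ACSL5 in V2LHS_62675 (-0.52, adjusted p = 0.0399), both of which activate fatty acids with coenzyme A. Of 16 fatty acid oxidation genes, ACADVL, a dehydrogenase of very long chains, was lower in V2LHS_62673 (-0.67, adjusted p = 0.0328) and V2LHS_62675 (-0.63, adjusted p = 0.0461), each against empty vector. DECR1, a reductase for unsaturated chains, was lower in V2LHS_62675 than in V2LHS_62673 (-0.67, adjusted p = 0.0397). No gene passed among 11 of sterol storage and export, where LIPA, the lysosomal lipase, had the smallest p between knockdown and control (-0.29, adjusted p = 0.761 with all clones). Nor did any of 9 other elongation and desaturation genes, where that gene was ELOVL1 (-0.60, adjusted p = 0.761). No companion gene passed upwards against empty vector. Without clone 8, 0.991%, 3.74% and 3.57% of all 11199 features were called in V2LHS_62673, V2LHS_62675 and wild type cells. Of these features, 34, 172 and 188 in the same order passed upwards, so few upward calls were to be had in lists of this size.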

How the data were processed

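The deposited values were used as the authors gave them, as 1 log2 value for each of 22011 probes (transcript clusters) on each of 10 arrays. No label states the log2 base, which was inferred from their range. How the authors corrected background and normalized is not given in the sources used here. Every per-sample column was mapped to a labelled sample. The labels name total RNA depleted of ribosomal RNA and biotin-labelled cDNA. Gene names came from GEO's platform annotation, updated by gene identifier for 14404 of 14432 probes with 1 symbol. Each gene was read from its probe of highest mean, and a gene was tested where that mean reached the 25th percentile over all probes (log2 5.96). The arrays of the V2LHS_62675 clone were averaged, which left 8 clone-level samples.

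Two-sided moderated tests were fitted with limma 3.58.1 under R 4.3.3. P-values were adjusted over 11199 features by Benjamini-Hochberg, with a threshold of 0.05. Knockdown against control had 6 residual degrees of freedom. All other comparisons came from a single model of 4 groups, which left 4 such degrees of freedom, or 3 without clone 8. In that fit the V2LHS_62675 clone and wild type cells are 1 sample each and take the spread of the other groups. The fits were tested on simulated data. Exact permutation tests were run for single members in the comparison of 4 knockdown and 4 control samples. The members and the companion and marker lists were chosen with earlier results of these data known. Every member with a probe was named. From each companion list, the genes past the threshold were named, or the 1 with the smallest p where none passed. Scaling, filter, probe choice, prior, array weights, blocks and single omissions were varied. The fits without clone 8 under further settings and 1 motif were added after seeing the data.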

Additional observations from a re-analysis of the deposited data

Results flagged for a closer look

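In groups of 4 samples, 1 sample of a member lay far from the other 3 in 13 of 52 cases, the 26 members in the knockdown and in the control samples, where chance gives about 1 in 20. The distance was judged by Dixon's test of the gap against the whole range. In the knockdown samples this was 7 of 26 members (26.9%), against 26.9% of all 11199 features, and in the controls 6 of 26 (23.1%), against 5.64% of all features. Wild type cells were the low sample among the controls for HMGCS1 (10.19), TM7SF2 (8.04), INSIG1 (8.64), SCD (11.55) and FADS1 (7.24). For NSDHL, empty vector clone 1 was the high one (9.60). Among the knockdown samples clone 8 was high for MVD (8.50), FDPS (9.29) and FASN (10.36) and low for NSDHL (8.27), ACLY (9.77) and ELOVL6 (7.65). The V2LHS_62675 clone was the low one for INSIG1 (8.45). Between the constructs without clone 8, V2LHS_62675 was lower than V2LHS_62673 for INSIG1 (-1.11), IDI1 (-0.81) and LSS (-0.65), each past an adjusted p of 0.05 in limma. The cause of these patterns was not tested.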

How the results depend on the processing

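With all clones no member passed, and this held for knockdown against control and for V2LHS_62675 against wild type cells under every setting tried. Leaving out 1 sample at a time gave 0 to 3 members for V2LHS_62673, 0 to 7 for V2LHS_62675 and 0 to 5 for wild type cells against empty vector, 0 to 3 between the constructs and 0 to 3 for V2LHS_62673 against wild type cells, with every maximum from omission of clone 8. Array weights gave 3, 8, 9, 4 and 6 in the same order, among 338, 472, 479, 371 and 370 features. The replicate number as a block, over the arrays of V2LHS_62675 and empty vector, gave 11 members among 944 features, against 12 among 1030 without the block. Both fits, and the random block, take the 3 repeats of 1 clone as separate arrays. Same-numbered arrays deviated together at r of 0.03, -0.15 and -0.23, and arrays of unlike number at -0.08 to 0.23. With 3 arrays in each group, this check cannot decide whether arrays of the same number share more than the number. Further omissions were made with clone 8 left out. Against empty vector they gave 0 to 5 members for V2LHS_62673, 3 to 10 for V2LHS_62675 and 2 to 10 for wild type cells. Between the constructs they gave 1 to 6, and for V2LHS_62673 against wild type cells 0 to 3. Clone as a random block over all arrays gave 0, 12, 3, 5 and 0 in that order, among 23, 1356, 107, 506 and 10 features. Quantile normalization gave 1 for V2LHS_62673 against empty vector, among 27 features. Against wild type cells, V2LHS_62673 had 1 among 102 features with median centring and 1 among 80 with no filter, which tests more features. Wild type cells against empty vector had 9 among 540 with a filter at the 50th percentile and 9 among 556 with a trended robust prior. No result changed direction past its threshold. INSIG1 passed in all 18 settings without clone 8 for V2LHS_62675 and wild type cells against empty vector and between the constructs, as did TM7SF2 in the first and second of these, while every other call was lost in at least 1. For V2LHS_62675 against empty vector, DHCR7 and SCD each passed in 13 of the 18. Both were lost with median centring and with no filter on dim probes. Median centring moved the median of all features between V2LHS_62673 and wild type cells from 0.07 to -0.05 with all clones. The number of arrays, with 1 clone-level sample each for V2LHS_62675 and wild type cells, limits every comparison, and except where the construction of a setting shows it, the cause of a change was not tested.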
